A study of Mus musculus with 5 samples.

Results

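The genes described here carry the insulin signal from the cell surface to the nucleus: the insulin receptor gene Insr, the receptor substrates Irs1 and Irs2, the PI3K regulatory subunit Pik3r1, the kinases Akt1 and Akt2, and the transcription factors Foxo1 and Foxo3. They were chosen by name, as every probe set of the array that the platform annotation assigns to exactly 1 of these 8 symbols. There were 23 such probe sets among 34945 with 1 symbol, and 8 genes among 18193. All 8 genes lay above the filter on dim genes, which kept 10916 genes for testing.

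Insulin binding makes the receptor phosphorylate its substrates, which dock PI3K through its regulatory subunit. The lipid that PI3K makes brings Akt to the membrane, and active Akt phosphorylates FoxO factors, which then leave the nucleus. When insulin is low, FoxO factors stay in the nucleus and are known in liver to drive Irs2 and other genes. In the retina, insulin receptor signalling through Akt is known as a survival signal for photoreceptors and other neurons, and much of it is set by phosphorylation, which RNA levels do not show.

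The study measured retinal total RNA of mice on 5 Affymetrix whole-genome expression arrays, 3 for diabetic and 2 for control animals. Diabetic replicates 1 and 2 were pools of 4 retinas, from 2 mice each that had been diabetic for 5 weeks after streptozotocin, a toxin of the pancreatic beta cells that make insulin. Diabetic replicate 3 held 6 retinas of 3 mice with diabetes of 3 to 4 weeks, whose inducing agent the label does not name. Each of the 2 control pools held 4 retinas of 2 untreated mice of matched age and normal blood glucose. Strain, sex and insulin levels are not given in the labels used here. Each array is 1 pool of animals, so a p-value measures the spread between pools.

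Irs1 and Irs2 are the substrates that the receptor phosphorylates, and the DNA before their starts is shown because both windows held the letters of an insulin response sequence, a short element bound by FoxO factors in genes that insulin represses. The sequences are from RefSeq (build GRCm38.p6), each read 5′ to 3′ on the gene's strand from 250 bases before its start to 50 bases after it. The Irs1 window is chr1:82291390-82291689 on the minus strand and the Irs2 window chr8:11008880-11009179 on the minus strand. Capitals mark the core searched, CAAAACA on either strand, which here reads TGTTTTG.
Irs1: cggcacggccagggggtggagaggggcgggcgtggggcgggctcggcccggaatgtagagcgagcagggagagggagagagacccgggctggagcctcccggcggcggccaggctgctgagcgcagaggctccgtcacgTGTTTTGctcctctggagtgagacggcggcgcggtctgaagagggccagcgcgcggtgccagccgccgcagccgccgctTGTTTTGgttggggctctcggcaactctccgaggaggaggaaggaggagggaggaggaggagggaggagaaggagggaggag
Irs2: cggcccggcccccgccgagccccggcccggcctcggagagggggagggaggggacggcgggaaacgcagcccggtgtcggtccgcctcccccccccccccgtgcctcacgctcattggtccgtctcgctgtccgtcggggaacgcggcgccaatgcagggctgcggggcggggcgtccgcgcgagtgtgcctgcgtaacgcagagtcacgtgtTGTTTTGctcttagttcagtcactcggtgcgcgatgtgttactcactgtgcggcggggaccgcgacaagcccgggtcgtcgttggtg
The core began 111 and 32 bases before the Irs1 start and 37 bases before the Irs2 start. It was in 6.28% of all 32851 windows of this length, and in 2 or more copies in 0.493%. Of the 12 windows listed for 7 of the 8 genes, only these 2 held it, while Insr was not listed. The FoxO core GTAAACA, on either strand, was in 3.65% of all windows and in 1 of the 12, a window of Akt1. Both printed windows also held CACGTG, the E-box, which was in 7.15% of all windows. It began 4 bases before a TGTTTTG in Irs1, overlapping it, and 7 bases before the TGTTTTG in Irs2. A pair with first letters within 10 bases lay in 9 of all windows, or 0.0274%, and these 2 windows are among the 9. This pairing was noticed by reading the sequences, and the limit of 10 bases takes in both spacings. The share is therefore no test of how unusual the pairing is, and the matches describe letters, not binding. The GC content was 71.3% in the Irs1 window and 72.0% in the Irs2 window, against a median of 52.7% over all windows.

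The arrays were alike in overall level, with median signals from 634.6 to 714.7. Rod markers, which define the outer retina, had the highest summed signal of the marker lists in every pool, from 490558 to 552047 in diabetic and from 478094 to 549909 in control pools. Skeletal muscle markers (13 of 13) were higher in diabetic replicate 3 and control replicate 2 than in the other 3 pools, with summed signals of 98387 and 62923 against 5688 to 6564. Diabetic replicate 2 had a 3′ to 5′ ratio of beta-actin control signals of 4.32, against 2.01 to 2.71 in the other pools. For the Gapdh control signals the ratio was much closer between pools, at 0.90 in diabetic replicate 2 and 0.78 to 0.84 in the others.

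The comparison of diabetic with control pools asks whether retinal transcripts of this pathway differ after weeks of diabetes. None of the 8 genes passed (limma with Benjamini-Hochberg adjustment over 10916 genes, adjusted p = 0.999 in every case), and Irs1 was the 1 gene whose diabetic and control pools did not overlap. Across all 10916 genes tested, 0% passed at an adjusted p of 0.05, 3.39% had an unadjusted p under 0.05 and 18.1% had groups that did not overlap, 8.15% with the diabetic pools lower. A share of 1 in 8 is therefore near the background. Differences below are on the scale of log2(signal + 120.6), which understates those of dim genes, and in whole tissue fewer cells of a type and less RNA per cell cannot be told apart.

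**Figure D1:**
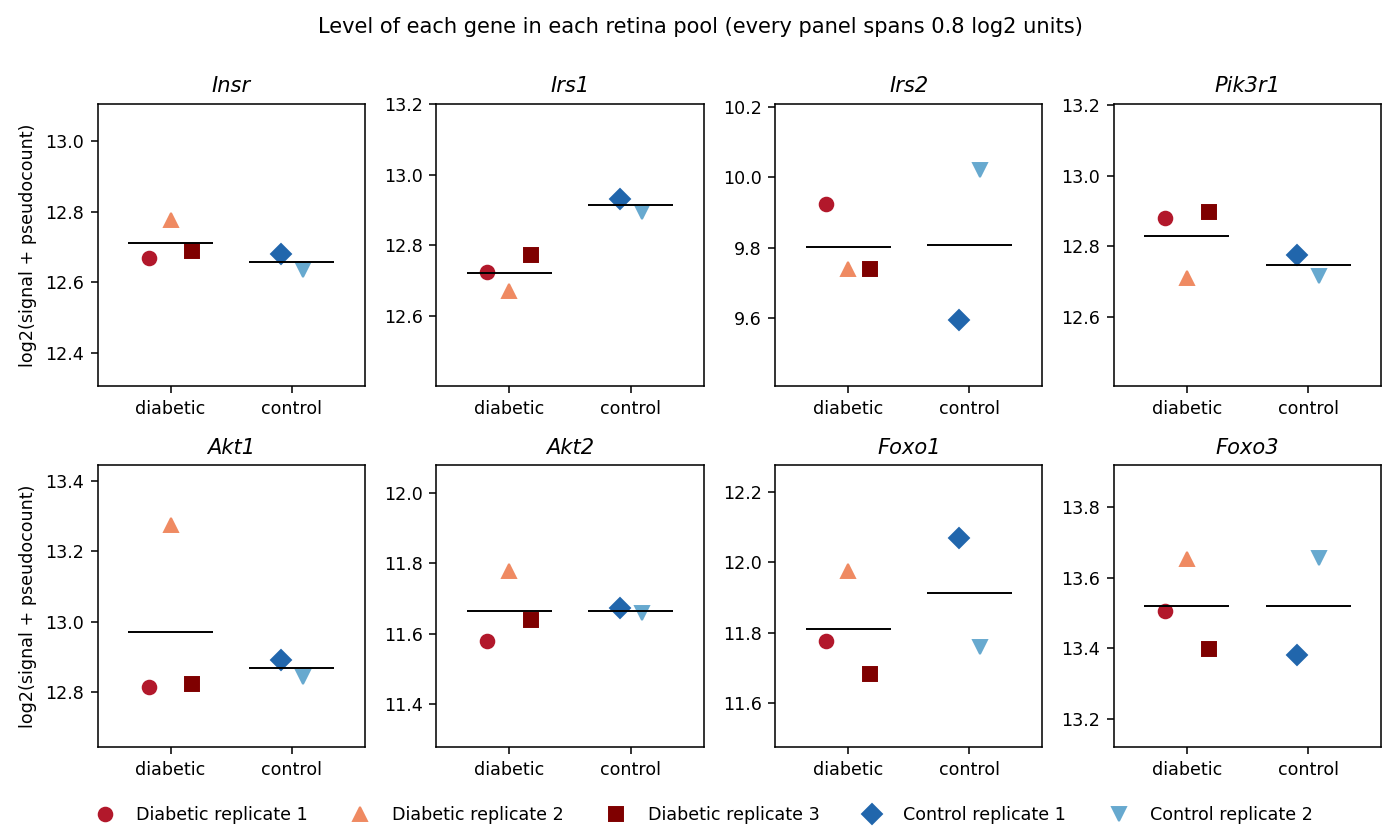
Levels of the 8 genes on the log2(signal + pseudocount) scale, 1 point per retina pool, with diabetic pools on the left of each panel, control pools on the right and bars at group means. The 3 diabetic points of Irs1 lie below both control points, and in each of the other 7 panels the groups overlap.

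Insr encodes the receptor tyrosine kinase that binds insulin. Its signal was 6386, 6888 and 6479 in diabetic replicates 1 to 3, against 6446 and 6238 in control replicates 1 and 2. Diabetic replicates 2 and 3 lay above both controls and diabetic replicate 1 between them. The signal averaged 6584 ± 267 in diabetic (SD, n = 3) and 6342 ± 147 in control pools (SD, n = 2), a log2 difference of 0.05 (SE 0.09, 95% interval -0.16 to 0.26). Expressed as a ratio, that interval runs from 0.898 to 1.20. Over the 5 pools Insr spanned 0.14 log2 units, and 8.24% of tested genes spanned less, so it was among the steadier transcripts.

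Irs1, an adaptor that links the receptor to PI3K, had signals of 6646, 6399 and 6878 in diabetic replicates 1 to 3, against 7688 and 7503 in control replicates 1 and 2. All 3 diabetic pools lay below both controls, and the pools of each group lay close together. The signal averaged 6641 ± 239 in diabetic (SD, n = 3) and 7595 ± 131 in control pools (SD, n = 2), or 12.6% less in diabetic pools. The log2 difference was -0.19 (SE 0.09, 95% interval -0.39 to 0.01), with an unadjusted p of 0.0614 in limma and an adjusted p of 0.999. It lay between -0.22 and -0.17 with single arrays left out. On the pools of high muscle signal, diabetic replicate 3 minus control replicate 2 gave -0.12, and on the others diabetic replicates 1 and 2 minus control replicate 1 gave -0.23. Because all 3 diabetic pools lay below both controls, none of these values could be positive, so their sign adds no support. Irs1 has 1 probe set, so no second one could be compared. Summed signals of pigment epithelium markers were also lower in every diabetic pool, at 84159 to 120209, than in the controls, at 138242 and 181285. Of these markers 8 of 8 had lower means in diabetic pools, and 7 had groups that did not overlap. Microglia and macrophage markers summed to 4906 to 6737 in diabetic and 6873 and 8469 in control pools. Their means were lower in 6 of 6, but only 2 had groups that did not overlap, and 3 lay above the filter. Melanosome markers did not group so, with 3 higher, 2 lower and all overlapping. Their summed signals were 22144, 2672 and 13660 in diabetic replicates 1 to 3, against 4684.5 and 18348 in control replicates 1 and 2. The part of any of these lists in the Irs1 difference was not tested.

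Irs2 is the second substrate, whose transcript FoxO factors raise in fasted liver. Its 1 probe set was dim, with signals of 850.9, 734.0 and 734.1 in diabetic replicates 1 to 3, against 652.2 and 917.5 in control replicates 1 and 2. Both extremes of the 5 pools were controls, and every diabetic pool lay between them. The difference was -0.00606 (SE 0.21, 95% interval -0.49 to 0.48), the widest interval of the 8 genes, from a ratio of 0.713 to one of 1.39. Leaving out control replicate 1 gave -0.22 and leaving out control replicate 2 gave 0.21, and it was 0.0248 when diabetic replicate 2 and 0.0247 when diabetic replicate 3 was left out. Its sign was therefore not settled.

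**Figure D2:**
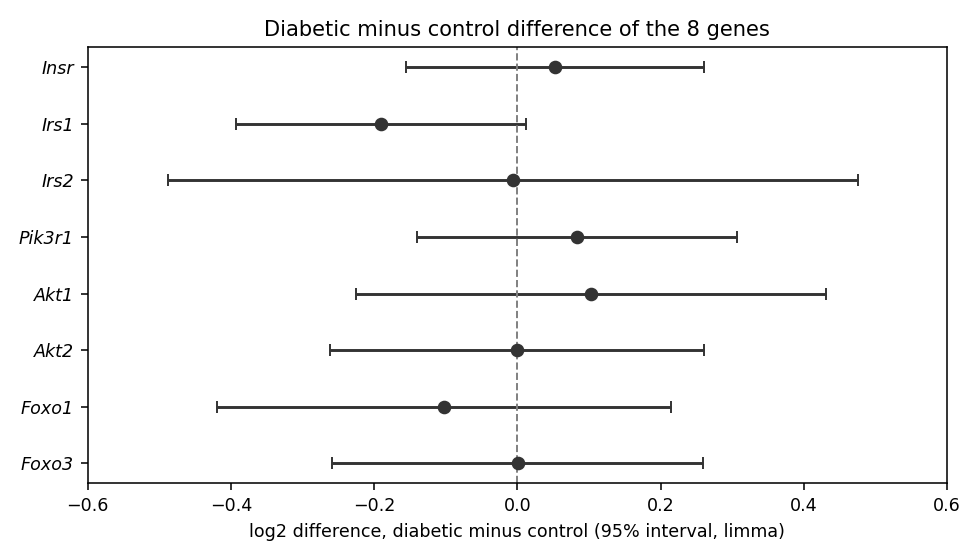
Differences of the 8 genes, diabetic minus control, on the log2(signal + pseudocount) scale, with points at the limma estimate and bars at its 95% interval. Every interval includes 0, that of Irs1 by the least (upper bound 0.01), and that of Irs2 is the widest.

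Pik3r1 encodes the p85 alpha subunit, which holds the PI3K catalytic subunit and binds phosphorylated Irs proteins. Its brightest probe set read 7426, 6583 and 7505 in diabetic replicates 1 to 3, against 6893 and 6614 in control replicates 1 and 2. Diabetic replicates 1 and 3 lay above both controls while diabetic replicate 2 was the lowest of the 5 pools. The log2 difference was 0.08 (SE 0.10, 95% interval -0.14 to 0.31).

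Akt1 and Akt2 are the serine/threonine kinases at the centre of the pathway, with Akt2 known for insulin-driven glucose uptake and Akt1 for growth. The Akt1 signal was 7081, 9777 and 7127 in diabetic replicates 1 to 3, against 7478 and 7230 in control replicates 1 and 2. Diabetic replicate 2 alone stood above, while the other 4 pools lay between 7081 and 7478. The difference was 0.10 (SE 0.14, 95% interval -0.23 to 0.43), and -0.05 without diabetic replicate 2. Akt2 read 2937, 3388 and 3067 in diabetic replicates 1 to 3, against 3142 and 3110 in control replicates 1 and 2. The controls lay inside the diabetic range, and the difference was -0.000660 (SE 0.11, 95% interval -0.26 to 0.26).

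Foxo1 and Foxo3 are the forkhead factors that Akt keeps out of the nucleus. The Foxo1 signal was 3383, 3906 and 3166 in diabetic replicates 1 to 3, against 4171 and 3344 in control replicates 1 and 2. Control replicate 1 was the highest pool and diabetic replicate 3 the lowest, with the rest between. The difference was -0.10 (SE 0.14, 95% interval -0.42 to 0.21), and 0.05 without control replicate 1. Foxo3 read 11521, 12773 and 10665 in diabetic replicates 1 to 3, against 10555 and 12787 in control replicates 1 and 2. Here diabetic replicate 2 and control replicate 2 were high together, and diabetic replicate 3 and control replicate 1 low together, so the pools split across the groups. The difference was 0.000394 (SE 0.11, 95% interval -0.26 to 0.26), with -0.14 when control replicate 1 and 0.14 when control replicate 2 was left out.

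Taken over the 8 genes, 4 had higher and 4 lower means in diabetic pools, with a median difference of -0.000133, and over all tested genes 5668 were higher and 5248 lower with a median of 0.00602. The median absolute difference was 0.07 for the 8 genes and 0.08 for all genes. In 7 of the 8 genes the difference was smaller than its own standard error. With each gene read from its brightest probe set, no 95% interval of the 8 reached below a ratio of 0.713 or above 1.39. These are ratios of signal plus pseudocount, which understate the differences of dim genes such as Irs2. Intervals of some further tested probe sets were wider, from -0.94 to 0.72 log2 units for the most variable of Pik3r1 and from -0.76 to 0.44 for the third of Akt2. Larger differences of the genes were therefore not excluded. The median span over the 5 pools was 0.27 log2 units for the 8 genes and 0.32 for all tested genes.

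Several probe sets of a gene gave a second look at the same transcript, and for 3 of the 5 genes with more than 1 tested probe set they differed in opposite directions. Of the 23 probe sets, 18 lay above the filter applied to probe sets, 7 with higher and 11 with lower means in diabetic pools, and none passed (limma, adjusted p over 20967 probe sets). Among those 20967, 0% passed, 2.76% had an unadjusted p under 0.05 and 17.2% had groups that did not overlap, which among the members was the case for that of Irs1 alone. Akt1, Foxo1 and Pik3r1 had probe sets in both directions, from -0.14 to 0.10 for the 3 tested of Akt1, from -0.10 to 0.09 for the 3 of Foxo1 and from -0.11 to 0.08 for the 4 of Pik3r1. The 3 of Akt2 were all lower in the diabetic mean, from -0.16 to -0.000660, and the 2 of Foxo3 higher, by 0.000394 and 0.02.

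The further probe sets of the Akt genes put the pools in other orders than the brightest ones. The third of Akt2 read 658.0, 1301 and 938.2 in diabetic replicates 1 to 3, against 1028 and 1090 in control replicates 1 and 2. Here diabetic replicate 1 was lowest and diabetic replicate 2 highest, with both controls between them. A dimmer one of Akt2 read 567.6, 627.4 and 625.2 in diabetic replicates 1 to 3, against 658.0 and 569.4 in control replicates 1 and 2, so the controls lay close to both ends of the range. The third of Akt1 read 780.2, 677.5 and 765.5 in diabetic replicates 1 to 3, against 755.3 and 851.9 in control replicates 1 and 2.

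For the FoxO genes the further probe sets also overlapped between groups. The 2 others of Foxo1 read 2186, 2097 and 2414 and then 2690, 2289 and 2442 in diabetic replicates 1 to 3, against 2367 and 2164 and then 2218 and 2412 in control replicates 1 and 2. Control replicate 1, the highest pool by the brightest Foxo1 probe set, was second and last by these. The second of Foxo3 read 7247, 6226 and 6354 in diabetic replicates 1 to 3, against 6171 and 6817 in control replicates 1 and 2. It kept control replicate 1 lowest and control replicate 2 above diabetic replicates 2 and 3, but not the high place of diabetic replicate 2. The order of pools within these genes therefore differed between probe sets.

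Diabetic replicate 2 was the highest or lowest pool in 12 of the 18 tested probe sets, 4 times highest and 8 times lowest. Over all 20967 tested probe sets it was so in 53.8%, more than any other pool (32.1% to 44.8%). All 4 probe sets of Pik3r1 were lowest there. The one that varied most read 1359, 559.3 and 1347 in diabetic replicates 1 to 3, against 1369 and 893.7 in control replicates 1 and 2. A second Akt1 probe set read 2532, 1718 and 2685 in diabetic replicates 1 to 3, against 2897 and 2174 in control replicates 1 and 2. In diabetic replicate 2 Akt1 was thus the highest of the 5 pools by one probe set and the lowest by another. This is the pool with the highest beta-actin 3′ to 5′ ratio, and the part of RNA quality in these values was not tested.

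**Figure D3:**
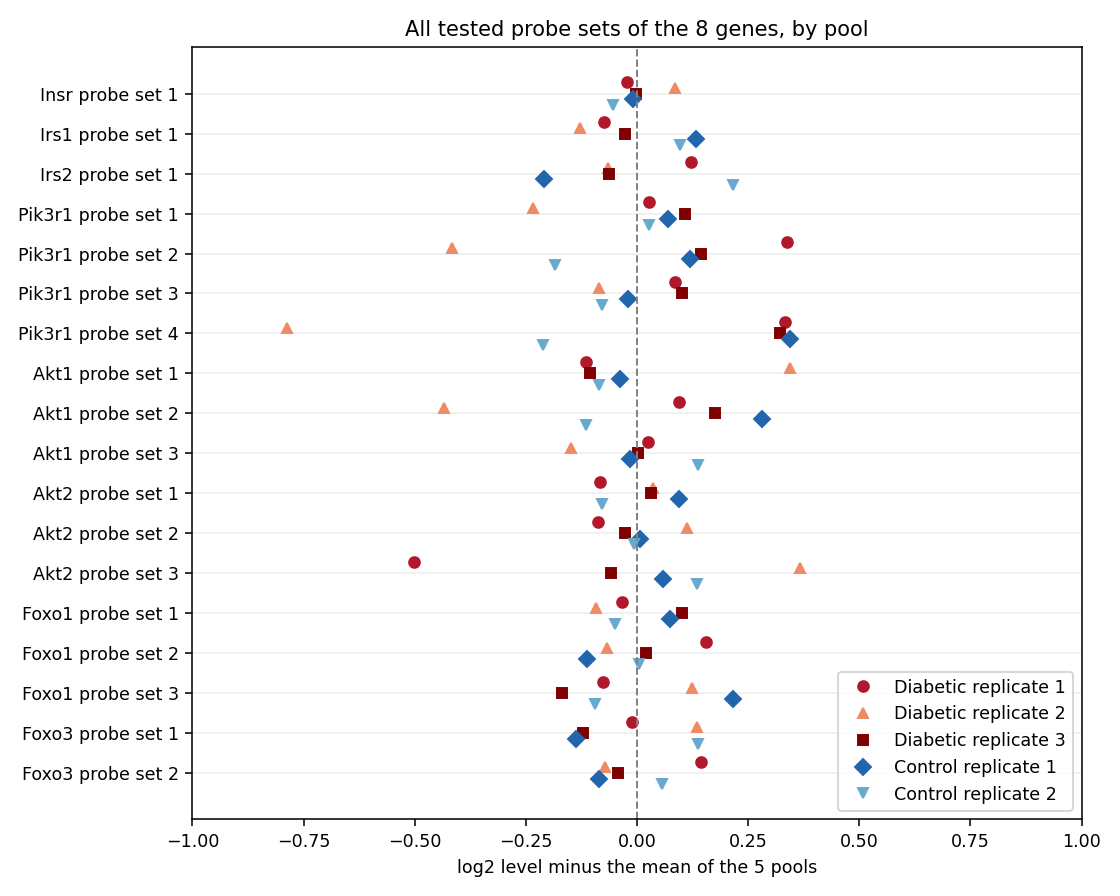
The 18 tested probe sets of the 8 genes, each pool's log2(signal + pseudocount) minus the mean of the 5 pools, with 1 symbol per pool and probe sets of a gene in order of their identifiers. Diabetic replicate 2 is at the left end in all 4 Pik3r1 rows, and at the right end in 1 and the left end in 2 of the Akt1 rows.

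The 5 probe sets below the filter were those of lowest signal, and were not tested. One of Insr read 284.0, 75.2 and 206.4 in diabetic replicates 1 to 3, against 86.2 and 86.2 in control replicates 1 and 2. Diabetic replicates 1 and 3 were high and diabetic replicate 2 was the lowest pool. The brightest Insr probe set did not show this order, and the other dim one of Insr read 347.5 to 392.1 in diabetic and 391.9 and 367 in control pools.

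The rest of the pathway was read from 7 lists with 97 genes in all, of which 89 were measured with a probe set of 1 symbol and 74 were above the filter. None of the 74 passed (limma over all genes), and 39 had higher and 35 lower means in diabetic pools, with a median difference of 0.01. In 11 of the 74 the groups did not overlap, and 3 had an unadjusted p under 0.05, beside the backgrounds of 18.1% and 3.39%. These 3 were Tbc1d1, Inpp4a and Gab1.

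Tbc1d1, a Rab GTPase-activating protein that Akt phosphorylates and that restrains glucose transporter traffic, read 588.7, 681.5 and 625.6 in diabetic replicates 1 to 3, against 940.0 and 1146 in control replicates 1 and 2. All diabetic pools lay below both controls, with a difference of -0.62 (SE 0.20, limma unadjusted p = 0.012, adjusted p = 0.999). Its other 3 probe sets were below the filter and had overlapping groups, with differences of -0.58, -0.33 and -0.07.

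Inpp4a, a phosphatase that removes a phosphate from a lipid downstream of PI3K, read 3816, 3920 and 4237 in diabetic replicates 1 to 3, against 3226 and 2986 in control replicates 1 and 2. The diabetic pools were all above, with a difference of 0.35 (SE 0.11, limma unadjusted p = 0.012, adjusted p = 0.999). A dimmer Inpp4a probe set, below the filter, differed by 0.64 with overlapping groups. Gab1, a docking protein that recruits PI3K, read 2647, 2934 and 3229 in diabetic replicates 1 to 3, against 2579 and 2057 in control replicates 1 and 2. Its difference was 0.33 (SE 0.14, limma unadjusted p = 0.049, adjusted p = 0.999), and a second tested probe set differed by 0.30 with groups that did not overlap either. The remaining Gab1 probe set, below the filter, differed by 0.15 with overlapping groups. Leaving out control replicate 2 gave a Gab1 difference of 0.18, leaving out control replicate 1 one of 0.48, and leaving out both pools of high muscle signal one of 0.11.

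Among ligands and other receptors 2 of 4 tested genes were higher in the diabetic mean (median 0.03). The IGF-1 receptor gene Igf1r differed by 0.08 (SE 0.09), Igf1 by 0.06 (SE 0.11) and the IGF-2 receptor gene Igf2r by -0.16 (SE 0.20). Of the 5 tested Igf1r probe sets, however, 1 was higher and 4 lower in the diabetic mean, and the mean over probe sets gave -0.12. Ins2, an insulin gene itself, was below the filter on genes, with 487.1, 575.6 and 455.0 in diabetic replicates 1 to 3, against 831.9 and 605.8 in control replicates 1 and 2. All 3 diabetic values lay below both control values. Its 1 probe set was among the 20967 tested as probe sets, of which none passed and 17.2% had groups that did not overlap.

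Of the adaptors at the receptor 4 of 10 were higher and 6 lower (median -0.03). Besides Gab1, Grb2, which links receptors to Ras, differed by -0.24 (SE 0.12) and Sh2b1, which enhances receptor kinase activity, by -0.15 (SE 0.09), both with groups that did not overlap. A second tested Grb2 probe set was higher in the diabetic mean, and the mean over both gave -0.0404. Of the other PI3K subunits 5 of 7 were higher (median 0.05). The catalytic subunit gene Pik3cb differed by 0.34 (SE 0.21) without overlap of the groups, Pik3ca by 0.15 (SE 0.13), and the regulatory subunit gene Pik3r3 by 0.10 (SE 0.11). These sizes moved with single arrays: Pik3cb differed by 0.17 without diabetic replicate 3, Pik3ca by 0.0462 without control replicate 1 and Pik3r3 by 0.0106 without diabetic replicate 1. Of the 6 tested Pik3ca probe sets, 3 were higher and 3 lower in the diabetic mean, and the mean over probe sets gave 0.0134.

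Of the inhibitors of the signal 5 of 10 were higher (median 0.02). After Inpp4a, the Akt phosphatase gene Phlpp2 differed by -0.08 (SE 0.08) and Ptpn1, which dephosphorylates the receptor, by -0.10 (SE 0.10). Of the kinases and substrates around Akt 6 of 13 were higher (median -0.02), with the related kinase genes Sgk1 at -0.07 (SE 0.07) and Sgk3 at -0.12 (SE 0.15). Of the mTOR branch, which couples Akt to protein synthesis, 7 of 13 were higher (median 0.02). In it Rptor, the scaffold of mTOR complex I, differed by 0.13 (SE 0.09), Mlst8, a subunit of both mTOR complexes, by -0.18 (SE 0.12), and Akt1s1, an Akt substrate that restrains mTOR, by 0.14 (SE 0.13).

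FoxO target genes bear on the output of the pathway, and 10 of 17 tested members were higher and 7 lower in the diabetic mean (median 0.02). The 3 of smallest p were Bcl2l11, Bnip3 and Klf15. Bcl2l11, a death-promoting member of the Bcl2 family, differed by -0.30 (SE 0.14), and by -0.07 without control replicate 2 and -0.52 without control replicate 1. Bnip3, a mitophagy receptor, differed by 0.13 (SE 0.07) and its 3 diabetic pools lay above both controls. Klf15, a metabolic transcription factor, differed by -0.39 (SE 0.27), with 844.1, 1382 and 657.9 in diabetic replicates 1 to 3, against 1257 and 1236 in control replicates 1 and 2. Diabetic replicate 2 lay above both controls and the other diabetic pools below. Leaving out diabetic replicate 3 gave a Klf15 difference of -0.18, and leaving out diabetic replicate 2 one of -0.66. The remaining 7 of the 24 members, among them Pck1, G6pc and Igfbp1, the classic FoxO targets of liver, were below the filter.

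**Figure D4:**
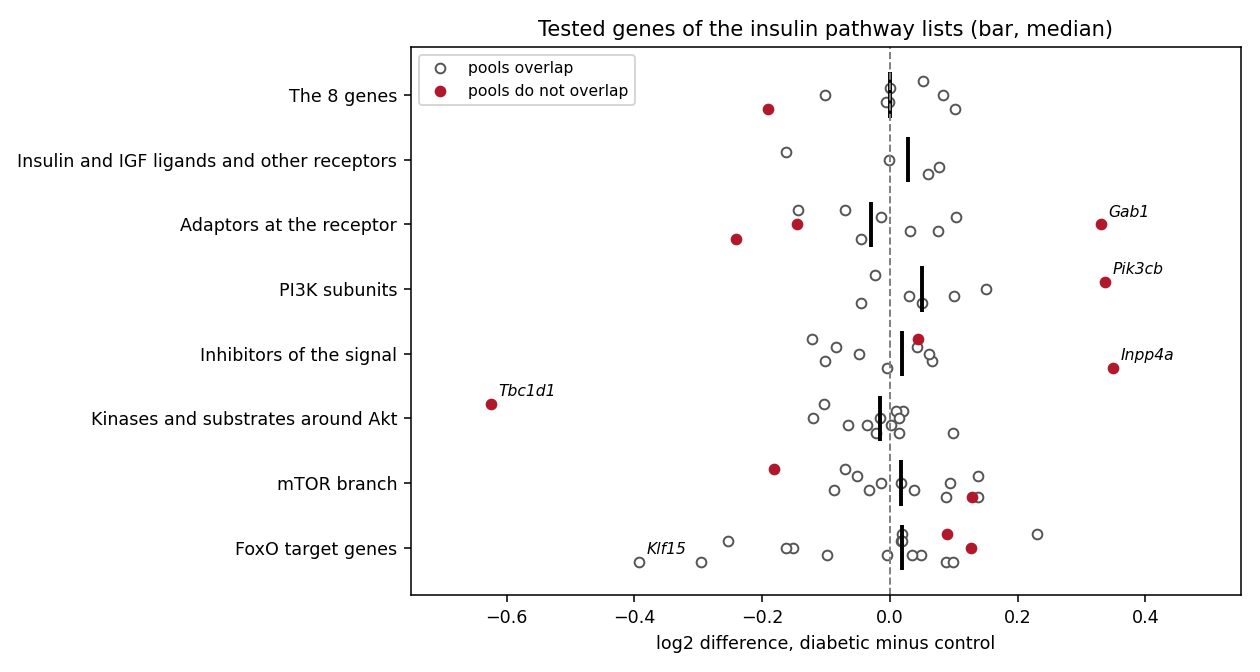
Log2 differences, diabetic minus control, of the tested genes of each pathway list and of the 8 genes, with 1 circle per gene, filled where the pools of the groups did not overlap, and a bar at each median. The medians run from -0.03 to 0.05, and the circles farthest from 0 belong to Tbc1d1, Klf15, Inpp4a, Pik3cb and Gab1.

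Genes of the most similar course over the 5 pools were found by the root mean square distance between log2 levels centred on each gene's mean. Nearest to Irs1 were Plekhm1 at 0.01 and Rab5c at 0.02 log2 units, against a median distance of 0.16 over all tested genes with a standard symbol. Nearest to Insr were Syt7 and Chd1, to Irs2 Gins4 and Tti1, to Pik3r1 Ccni and Sh3bgrl2, to Akt1 Adamtsl1 and Smim4, to Akt2 Fgf13 and Armcx4, to Foxo1 Rbm34 and Pappa2, and to Foxo3 Rims1 and Cacna1b. The distances of these 16 genes ran from 0.00827 to 0.0240. With 5 pools and 10916 genes, close courses are easy to find, and these are descriptions without a test.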

How the data were processed

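The authors deposited 1 linear signal intensity per probe set for each of 5 arrays. Each array had the same mean of 2500.0 without its lowest and highest 2%, as global scaling gives. The summarization software is not given in the sources used here. The table held 45101 probe sets. Symbols came from the platform annotation, and 34741 of 34945 were matched by Entrez ID to the RefSeq genes of GRCm38.p6.

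Signals were taken as log2(signal + 120.6), the pseudocount being the 20th percentile of all values. Array medians differed by 0.15 on this scale, so the deposited scaling was kept. Each gene was its probe set of highest mean, and the upper 60% of genes were tested with limma (lmFit, eBayes with a trend) and Benjamini-Hochberg adjustment. The same was done for probe sets. The steps were tested on simulated data with a common variance for all genes and changes larger than any of the members showed. That test does not bear on differences of the size seen here.

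Groups and replicate numbers came from the sample titles. The members and lists were chosen with earlier results of these data known. Named were all members, the 3 genes of smallest p in each list, and the 2 nearest genes of each member; Ins2, Pck1, G6pc and Igfbp1 were added by role. Of the 97 listed genes, 8 had no probe set of 1 symbol in the table used and are not analysed here. Intervals are 95% intervals of limma's moderated statistics, and the number of arrays limits the precision. Alternatives covered pseudocount, normalization, filter, probe set summary, variance model, array weights, a replicate block, the muscle split and each array left out. The fits used limma 3.58.1 (R 4.3.3), and figures matplotlib 3.10.9 (Python 3.11.15).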

Additional observations from a re-analysis of the deposited data

Results flagged for a closer look

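One probe set assigned to both Foxo3 and a predicted gene lay outside the comparison, which used probe sets of 1 symbol. Its signal was 1110, 968.2 and 1051 in diabetic replicates 1 to 3, against 841.9 and 919.3 in control replicates 1 and 2. All 3 diabetic pools were above both controls, with a log2 difference of 0.22 and no test. It drew attention because it is a signal in data not otherwise used that is above the level of the control pools, and 18.1% of tested genes also had groups that did not overlap. The 2 tested probe sets of Foxo3 alone differed by 0.000394 and 0.02, with overlapping groups. No group held the 4 or more arrays that a check for a single outlying array needs.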

How the results depend on the processing

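None of the 8 genes and none of the list genes passed under any of the 17 alternatives in which they were tested, and the smallest adjusted p of the 8 genes and the named list genes was 0.811. Irs2, Igf2r, Pik3cb, Tbc1d1, Sgk3 and Klf15 were below the stricter filter, and Tbc1d1 also below the filter with the mean over probe sets. Insr stayed positive (0.02 to 0.17) and Irs1 negative (-0.23 to -0.16) under all of them. For Irs1 the sign could not turn with arrays left out or with the muscle split, as its groups did not overlap. With single arrays left out the differences ran from -0.22 to 0.21 for Irs2, -0.0489 to 0.18 for Akt1, -0.0569 to 0.0425 for Akt2, -0.26 to 0.0522 for Foxo1, -0.14 to 0.14 for Foxo3, 0.05 to 0.14 for Pik3r1 and -0.0279 to 0.15 for Igf1. They also moved by over 1.5 times for Insr (0.0202 to 0.0757), Igf1r (0.0293 to 0.15), Igf2r (-0.33 to -0.0138), Phlpp2 (-0.14 to -0.0326), Ptpn1 (-0.20 to -0.00753), Sgk1 (-0.11 to -0.0250), Sgk3 (-0.19 to -0.0463), Mlst8 (-0.23 to -0.11), Akt1s1 (0.0548 to 0.22), Grb2 (-0.32 to -0.16) and the genes given such values above. Signs turned for Irs2 (0.0311), Akt2 (0.00765) and Foxo3 (-0.0140) with quantile normalization, and for Irs2 (0.0252) and Akt2 (0.0306) with centring on medians. With the mean over probe sets they turned for Pik3r1 (-0.0134), Akt1 (-0.0158), Igf1r (-0.12) and Akt1s1 (-0.0798), with array weights for Foxo3 (-0.0473), and with the muscle split as a block for Irs2 (0.0156). Without both arrays of high muscle signal they turned for Irs2 (0.24), Akt2 (0.00531) and Igf2r (0.12). In these cases the cause was not tested.

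The replicate block, in which diabetic replicate 3 has no partner and leaves the comparison, gave 0.0247 for Irs2 and 0.0124 for Akt2, and 2 genes passed across the array (Spc25 and Rgr), against 0 without it. The correlation of deviations from group means between pools of the same number was 0.13 for replicate 1 and -0.14 for replicate 2. With 2 control pools their deviations mirror each other, so this check cannot decide whether the shared numbers pair the pools. Across the array 2 genes (Spc25 and Npl) also passed without both arrays of high muscle signal, and 0 to 1 with single arrays left out (Prss22 without diabetic replicate 2, Spc25 without diabetic replicate 3). Genes at an unadjusted p under 0.05 numbered 370, and 208 to 695 under the alternatives: 606 without diabetic replicate 2, 231 without control replicate 2, 579 with array weights, and 214 and 695 under the stricter filter and none, which test other numbers of genes. The names of genes outside the pathway were chosen with their values in view. The number of arrays limits the precision of every value.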
